A study of Arabidopsis thaliana with 9 samples.

Results

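CLV3, UFO and YAB5 are 3 regulators of shoot meristems and lateral organs in Arabidopsis thaliana, and their transcript signals were compared between ebs mutant, shl-2 mutant and wild type seedlings. CLV3 (AT2G27250) and YAB5 (AT2G26580) lie on chromosome 2 and UFO (AT1G30950) on chromosome 1. The members were the probe sets annotated to these genes, 1 probe set for each gene. They make up 3 of the 13355 genes that a probe set of the array named, and 3 of the 22746 probe sets tested. YAB5 was chosen by its measured signal on these arrays, lower in ebs alone, so its values below are a description without a test. CLV3 and UFO were not picked for their values, although earlier results of these data were known when the members were chosen.

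Each of the 9 arrays measured complete plants of the accession Landsberg erecta, which all 3 genotypes share, grown on solid MS medium for 18 days under a short photoperiod (8 h of light, 16 h of darkness). The 3 ebs, 3 shl-2 and 3 wild type samples are labelled as independent biological pools, and the sources used here do not give the number of plants in a pool. The ebs and shl-2 plants carry mutations in EBS and SHL, genes for related chromatin proteins that read histone marks and repress flowering. The sample titles and genotype tags write shl-2, whereas the source names of the same samples write shl-2-2.

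In the shoot apical meristem, CLV3 is a small secreted peptide made by the stem cells. It is perceived by receptor kinases such as CLV1 and limits the expression of WUS, a homeodomain factor that sustains the stem cells. UFO is an F-box protein, a substrate-binding subunit of an SCF ubiquitin ligase, that works with the floral regulator LFY to activate petal and stamen genes. YAB5 belongs to the YABBY transcription factors, which are expressed on the lower (abaxial) side of young leaves and other lateral organs and act with co-regulators of the LUG and SEU type. CLV3 and UFO are expressed in small groups of cells at the shoot apex, which form a minor part of a whole seedling.

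Signals are log2 values per probe set. Median signals of the arrays lay between 6.06 and 6.12, and the number of arrays limits the precision of all values. SHL, annotated as SHL1, checked the labels: it read 7.46, 6.91 and 6.52 in shl-2, 8.08, 7.82 and 7.81 in ebs, and 7.88, 8.02 and 7.88 in wild type. Its log2 fold change against wild type was -0.96 in shl-2 (SE 0.19, limma adjusted p = 0.0182). This call ended without shl-2 array 2 (adjusted p = 0.0608), without wild type array 2 (0.0772) or 3 (0.0586), and with the fit limited to these 2 genotypes (0.0502). EBS was not analysed here. A gene counts as measured in this report if a probe set named it alone. Of the 22746 probe sets tested, 8730 were unnamed here and 503 named several genes. A listed gene that is not counted as measured may therefore still have a probe set on the array. Among the leaf photosynthesis markers of a green seedling, 6 of 32 genes were measured, and their mean signal per array lay between 13.65 and 13.74 in ebs, between 13.65 and 13.76 in shl-2 and between 13.63 and 13.73 in wild type. Each of these 6 was brighter than 99.5% of probe sets, and RCA read 14.34 on every ebs and shl-2 array. So near the top of the signal range, differences between genotypes may be understated. The difference between 3' and 5' control probe sets is a sign of how complete the labelled RNA was. On the log2 scale it came to 1.45 to 1.48 in ebs, 1.43 to 1.45 in shl-2 and 1.17 to 1.41 in wild type for ubiquitin. For actin it was 3.21 to 3.27 in ebs, 3.26 to 3.58 in shl-2 and 3.25 to 3.52 in wild type, and for GAPDH 0.53 to 0.67 in ebs, 0.71 to 0.80 in shl-2 and 0.49 to 0.74 in wild type. Both mutants were thus separated from wild type for ubiquitin and overlapped it for actin and GAPDH. The mutants were separated from each other for GAPDH, overlapped narrowly for actin and met at 1.45 for ubiquitin. The part of these differences in the results below was not tested.

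YAB5 transcript was lower in ebs seedlings, at 55.2% of the wild type signal on a linear scale, and differed little between shl-2 and wild type. Its log2 signals were 6.06, 6.58 and 6.58 in ebs, 7.53, 7.16 and 7.36 in shl-2, and 7.24, 7.42 and 7.13 in wild type. All 3 ebs arrays lay below the other 6 arrays, and ebs array 1 was the lowest of all, whereas the shl-2 and wild type arrays overlapped. The means were 6.41 ± 0.30 in ebs, 7.35 ± 0.19 in shl-2 and 7.26 ± 0.15 in wild type (SD, n = 3 each). The difference was -0.86 (SE 0.15) for ebs minus wild type, 0.09 (SE 0.15) for shl-2 minus wild type and 0.94 (SE 0.15) for shl-2 minus ebs on the log2 scale. Both mutants were set against the same wild type arrays. In order of level, shl-2 and wild type were not separated beyond their spread, and ebs stood below both. In ebs minus wild type, 63 of the 22746 probe sets had a lower log2 fold change than YAB5, and in shl-2 minus ebs 28 had a higher one. Without ebs array 1 the difference from wild type was -0.68, and it reached -0.94 without ebs array 2. The shl-2 minus wild type difference ran from -0.0033 without shl-2 array 1 to 0.18 without shl-2 array 2. A bulk sample cannot tell apart fewer cells that express YAB5 and less YAB5 RNA per cell.

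**Figure D1:**
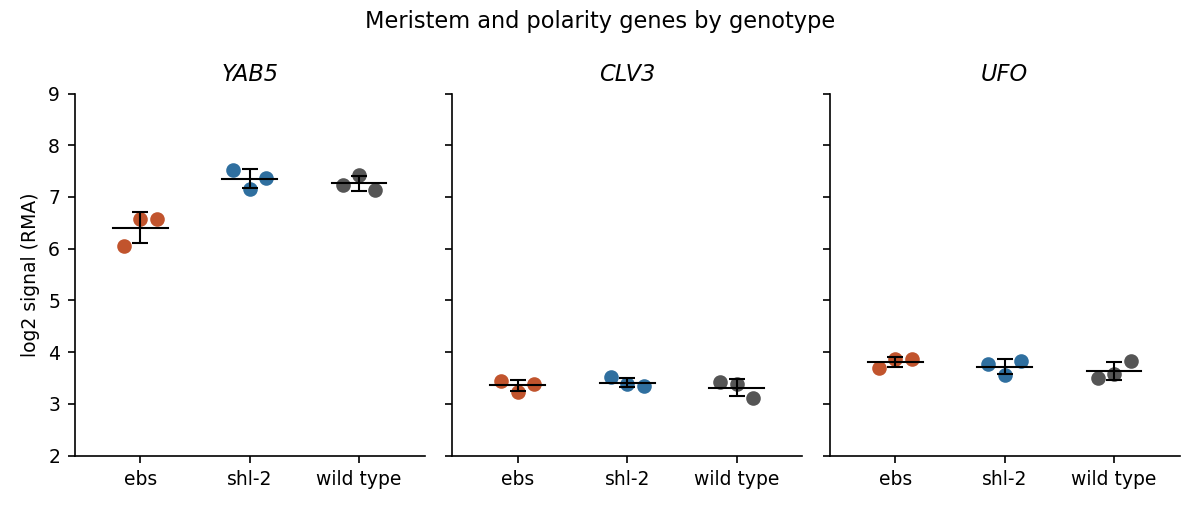
Log2 signals of YAB5, CLV3 and UFO on each array of the ebs, shl-2 and wild type genotypes, with points for arrays, horizontal bars for means and error bars for SD (n = 3 each). The 3 ebs arrays of YAB5 sit at 6.06 to 6.58 and the other 6 at 7.13 to 7.53, while CLV3 and UFO overlap between all genotypes.

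CLV3 gave a dim signal in every genotype, and no difference passed the test. It read 3.45, 3.24 and 3.38 in ebs, 3.52, 3.38 and 3.34 in shl-2, and 3.43, 3.39 and 3.12 in wild type. The arrays of the 3 genotypes overlapped, and the lowest was a wild type array. Its mean over the 9 arrays, 3.36, lay below the lower quartile of all probe-set means, 3.85, with 14.1% of probe sets dimmer still. The log2 fold change was 0.04 in ebs against wild type (95% interval -0.18 to 0.27, limma adjusted p = 0.880) and 0.10 in shl-2 against wild type (-0.12 to 0.32, adjusted p = 0.669). Between the mutants, shl-2 minus ebs, it was 0.06 (-0.17 to 0.28, adjusted p = 0.901). As linear ratios these intervals run from 0.88 to 1.20 for ebs over wild type and from 0.92 to 1.25 for shl-2 over wild type. They concern the probe-set signal, and at this brightness background makes up an unknown share of it, so a change of the transcript may be understated.

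UFO was dim as well, and its differences did not pass. Its log2 signals were 3.70, 3.86 and 3.86 in ebs, 3.78, 3.56 and 3.83 in shl-2, and 3.51, 3.57 and 3.83 in wild type. The genotypes overlapped, with wild type array 3 as high as the brighter mutant arrays to within 0.03. The mean over all arrays was 3.72, also below the lower quartile, with 22.6% of probe sets dimmer. The log2 fold change of UFO was 0.17 in ebs (95% interval -0.07 to 0.41, limma adjusted p = 0.471) and 0.09 in shl-2 (-0.15 to 0.32, adjusted p = 0.737) against wild type. In shl-2 minus ebs it was -0.08 (-0.32 to 0.15, adjusted p = 0.850). The linear ratio of ebs over wild type lay between 0.95 and 1.33, and that of shl-2 over wild type between 0.90 and 1.25. Neither CLV3 nor UFO passed in any of the 3 comparisons, where 3.19% of all probe sets passed in ebs and 5.43% in shl-2 against wild type, and 0.769% between the mutants. The smallest of their unadjusted limma p-values was 0.142, for UFO in ebs, so 0 were under 0.05. Of all probe sets, 16.9% were under it in ebs, 18.7% in shl-2 and 10.7% between the mutants.

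The genes these regulators work with were followed through 7 lists, in which 23 genes were measured. In ebs 1 of the 23 passed (4.35%, against 3.19% of all probe sets), and it was higher, as were 1.72% of all probe sets. In shl-2 4 of the 23 passed (17.4%, against 5.43%), 2 of them higher and 2 lower, beside 2.44% of all probe sets higher and 2.99% lower. The count of 4 fell to 1 without wild type array 2 or 3 or shl-2 array 2 or 3 and with only the compared genotypes fitted, and to 2 without ebs array 1 or 3 or shl-2 array 1. The arrays of mutant and wild type did not overlap for 6 of the 23 in ebs and 6 of the 23 in shl-2, and for 19.9% and 20.5% of all probe sets. None of the 23 passed limma's test between shl-2 and ebs, where 0.769% of all probe sets passed. At an unadjusted p under 0.05 there were 4 of the 23 (17.4%) between the mutants, against 10.7% of all probe sets. Against wild type there were 5 of the 23 (21.7%) in ebs and 5 (21.7%) in shl-2, beside 16.9% and 18.7% of all probe sets. The median log2 fold change of the 23 was 0.0067 in ebs and -0.03 in shl-2, beside -0.02 and -0.03 over all probe sets. LAS, CLE40, JAG, NUB, FD, PUCHI and SPL had means below the lower quartile of all probe-set means, 3.85. ARR15, INO, BPEp, CLE26 and AGO7 were low as well, with means over all arrays of 4.11, 4.29, 4.35, 4.38 and 4.60. As for CLV3 and UFO, changes of all these transcripts may be understated. The members that passed were ULT1 in both mutants and PHV, AGO7 and SEU in shl-2.

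**Figure D2:**
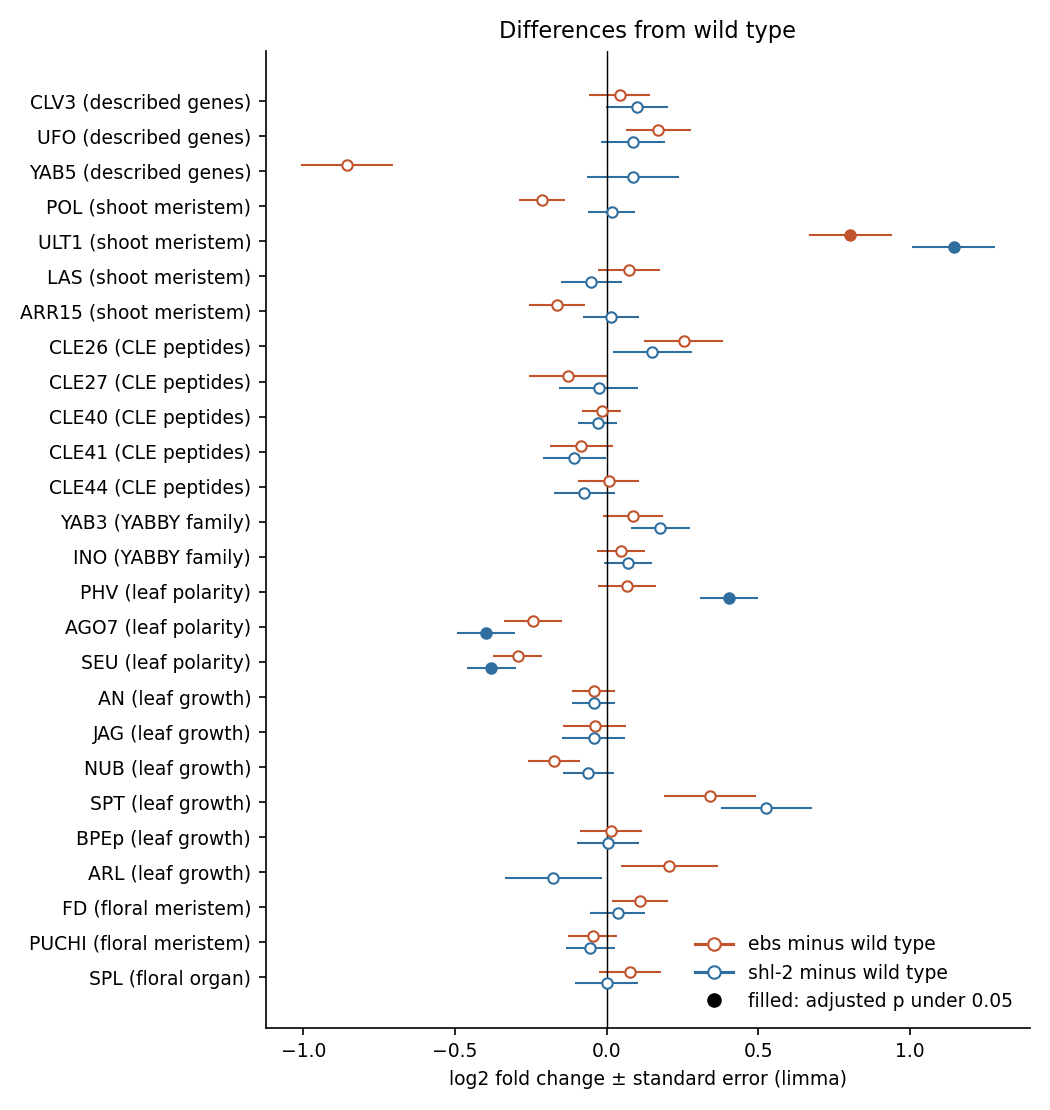
Log2 fold changes against wild type, with limma standard errors, for ebs (orange) and shl-2 (blue) in CLV3, UFO, YAB5 and the 23 genes of the 7 lists. Filled points passed at an adjusted p under 0.05, which holds for ULT1 in both mutants and for PHV, AGO7 and SEU in shl-2; YAB5 was not tested and is drawn open at -0.86 and 0.09.

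YAB3, the brighter of the measured relatives of YAB5, did not show the difference of YAB5 in ebs. YAB3, a close YABBY relative that also acts on the abaxial side of leaves, read 7.86, 7.95 and 8.00 in ebs, 7.97, 8.02 and 8.09 in shl-2, and 7.63, 7.96 and 7.96 in wild type. The ebs and wild type arrays of YAB3 overlapped, and the 3 shl-2 arrays lay just above the wild type arrays. Its log2 fold change was 0.09 in ebs (95% interval -0.13 to 0.31, limma adjusted p = 0.725) and 0.18 in shl-2 (-0.04 to 0.40, adjusted p = 0.384). INO, a YABBY factor of the outer ovule integument, had log2 fold changes of 0.05 (adjusted p = 0.830) in ebs and 0.07 (adjusted p = 0.712) in shl-2. Its signal was low, with means of 4.30 in ebs, 4.32 in shl-2 and 4.25 in wild type, and 31.2% of probe sets had a lower mean. A fall may be understated at this signal, so INO says little about whether its transcript was lower in ebs. YAB3 and INO were the 2 measured members of the 5 listed YABBY genes, and YAB1, YAB2 and CRC were not analysed here.

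Of the other polarity genes, 3 of 29 were measured. All 3 passed in shl-2, where 5.43% of all probe sets passed, and none of the 3 passed with ebs left out of the fit (limma adjusted p = 0.0634 to 0.0873). SEU encodes SEUSS, a transcriptional co-regulator that acts with LUG and binds YABBY proteins. It read 7.0, 7.01 and 6.94 in ebs, 7.01, 6.85 and 6.83 in shl-2, and 7.21, 7.23 and 7.39 in wild type. Every mutant array of SEU lay below every wild type array. SEU fell by 0.38 on the log2 scale in shl-2 (SE 0.08, limma adjusted p = 0.0225), and its log2 fold change in ebs was -0.29 (SE 0.08, adjusted p = 0.0854). Between shl-2 and ebs the difference was -0.09 (adjusted p = 0.777), so the mutants were not shown to differ. The shl-2 call was lost without wild type array 2 (adjusted p = 0.0579) or 3 (0.0706) or shl-2 array 2 (0.0776) or 3 (0.0749), and when only the compared genotypes were fitted (0.0634).

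AGO7 encodes an Argonaute protein needed to make the small RNAs that restrict abaxial auxin response factors from the upper leaf side. It read 4.46, 4.61 and 4.65 in ebs, 4.51, 4.49 and 4.26 in shl-2, and 4.91, 4.70 and 4.84 in wild type, and the mutant arrays lay below all wild type arrays. Its signal was low, with a mean over all arrays of 4.60 and 34.7% of probe sets dimmer, so differences may be understated. AGO7 fell by 0.40 on the log2 scale in shl-2 (SE 0.10, limma adjusted p = 0.0403). The log2 fold change in ebs was -0.24 (SE 0.10, adjusted p = 0.227), and shl-2 minus ebs was -0.15 (adjusted p = 0.634). Leaving out any of the 9 arrays ended the shl-2 call, with adjusted p between 0.0532 and 0.115. It also ended with the replicate block (adjusted p = 0.0628), a repeated quantile normalization (0.0590), a trended variance (0.0586), array weights (0.0651) or only the compared genotypes (0.0776).

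PHV encodes a class III HD-ZIP factor that specifies the upper (adaxial) side of leaves and acts in the shoot meristem. It read 7.02, 6.96 and 7.09 in ebs, 7.27, 7.26 and 7.55 in shl-2, and 7.07, 6.92 and 6.88 in wild type. The shl-2 arrays lay above the other 6 arrays, and the ebs and wild type arrays overlapped. PHV rose by 0.40 on the log2 scale in shl-2 (SE 0.10, limma adjusted p = 0.0385), and the log2 fold change in ebs was 0.07 (SE 0.10, adjusted p = 0.791). The direct difference of shl-2 minus ebs was 0.34 (95% interval 0.12 to 0.55, adjusted p = 0.189) and did not pass. The call in shl-2 was kept only without wild type array 1 or ebs array 2, and was lost without any of the other 7 arrays (highest adjusted p = 0.124) or with only the compared genotypes fitted (0.0873).

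ULT1, a SAND-domain protein that limits the size of shoot and floral meristems and counteracts Polycomb repression, had the largest log2 fold changes among the 23 genes in both mutants. It read 7.23, 7.14 and 7.24 in ebs, 7.45, 7.27 and 7.91 in shl-2, and 6.41, 6.41 and 6.38 in wild type. All 6 mutant arrays lay well above the 3 wild type arrays, whose values differed by 0.03. ULT1 averaged 7.20 ± 0.06 in ebs, 7.54 ± 0.33 in shl-2 and 6.40 ± 0.02 in wild type (SD, n = 3 each). It rose by 0.80 on the log2 scale in ebs (SE 0.14, limma adjusted p = 0.0135) and by 1.14 in shl-2 (SE 0.14, adjusted p = 0.00136), which are linear ratios of 1.75 and 2.21. The difference of shl-2 minus ebs was 0.34 (95% interval 0.04 to 0.64, adjusted p = 0.393). The shl-2 call held whichever array was left out (highest adjusted p = 0.00917). The ebs call ended without wild type array 2 (adjusted p = 0.0607) or 3 (0.0512) or ebs array 1 (0.0626) or 3 (0.0580), while the log2 fold change stayed between 0.79 and 0.84.

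**Figure D3:**
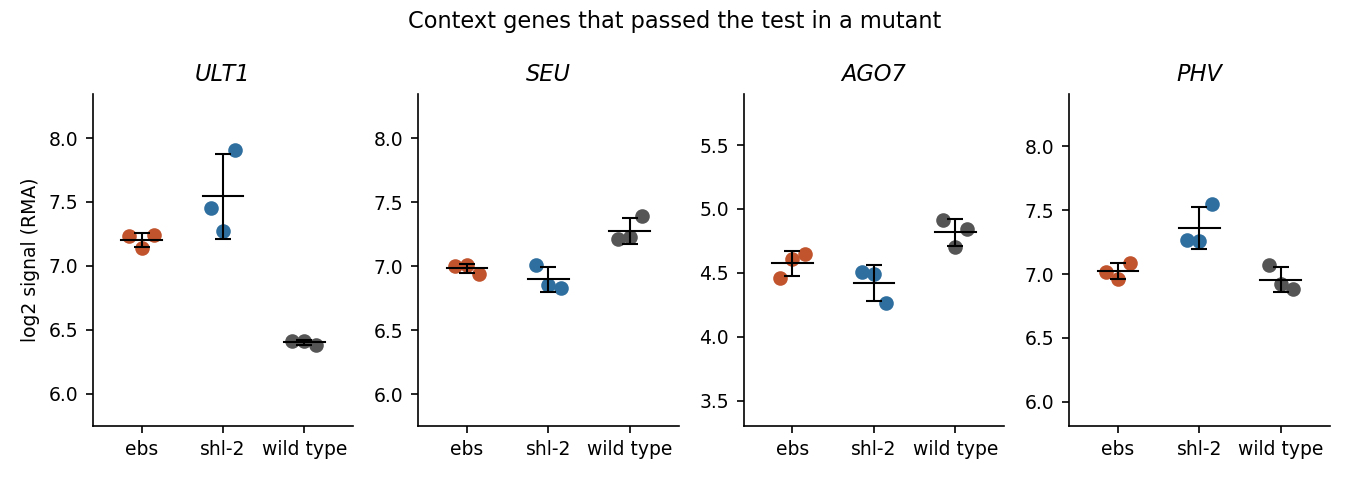
Log2 signals of ULT1, SEU, AGO7 and PHV on each array of ebs, shl-2 and wild type, with means and SD (n = 3 each); every panel covers the same height in log2 units. ULT1 lies above wild type in both mutants, SEU and AGO7 lie below it in both, and PHV lies above the other 6 arrays in shl-2.

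The other 3 of the 4 measured meristem genes, out of 43 listed, did not pass. POL, a protein phosphatase that acts downstream of the CLV receptors, had log2 fold changes of -0.21 (limma adjusted p = 0.189) in ebs and 0.02 (adjusted p = 0.942) in shl-2. LAS, a GRAS factor needed for axillary meristems, had 0.07 in ebs and -0.05 in shl-2, and ARR15, a cytokinin-induced response regulator, had -0.16 and 0.01. The receptors CLV1 and CLV2 and the homeodomain factors WUS and STM were not analysed here.

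Among the CLE genes, which encode peptides related to CLV3, 5 of 30 were measured. None passed in ebs or shl-2 by limma's test, beside 3.19% and 5.43% of all probe sets. At an unadjusted p under 0.05 there were 0 in either, beside 16.9% and 18.7% of all probe sets. With 5 genes, a count of 0 cannot be told from these shares. CLE41, a phloem-derived peptide gene that acts on vascular stem cells, had log2 fold changes of -0.08 (adjusted p = 0.751) in ebs and -0.11 (adjusted p = 0.653) in shl-2. CLE44, which encodes the same kind of vascular peptide, had 0.0067 (adjusted p = 0.985) in ebs and -0.07 (adjusted p = 0.768) in shl-2. Over the 5 genes the values ran from -0.13 to 0.25 in ebs and from -0.11 to 0.15 in shl-2.

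Genes that surround UFO in floral development were dim or not analysed here. Of 22 floral meristem genes 2 were measured, the bZIP factor FD, partner of the florigen FT, and PUCHI, an AP2-type factor of floral meristem identity. FD had log2 fold changes of 0.11 (limma adjusted p = 0.605) in ebs and 0.04 (adjusted p = 0.883) in shl-2, and PUCHI had -0.05 (adjusted p = 0.835) and -0.05 (adjusted p = 0.796). The sporogenesis gene SPL (NOZZLE), the 1 measured of 12 floral organ genes, had 0.08 (adjusted p = 0.775) in ebs and 0.00 (adjusted p = 1.0) in shl-2. Its signals of 3.47 to 3.56 in ebs, 3.30 to 3.50 in shl-2 and 3.21 to 3.59 in wild type lay below the lower quartile of probe-set means. LFY, AP3 and PI were not analysed here.

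In the list of organ boundary and leaf growth genes 6 of 34 were measured. None passed limma's test in either mutant, beside 3.19% of all probe sets in ebs and 5.43% in shl-2. At an unadjusted p under 0.05 there was 1 gene in each mutant (16.7%), near the 16.9% and 18.7% of all probe sets. That gene was SPT, a bHLH factor that restrains cotyledon and leaf growth, with log2 fold changes of 0.34 (adjusted p = 0.289) in ebs and 0.53 (adjusted p = 0.0797) in shl-2. With the replicate block SPT passed in shl-2 (adjusted p = 0.0122), and over the other alternatives and leave-one-out fits it did not. ARL, an ARGOS-like gene of cell expansion, had 0.21 (adjusted p = 0.575) in ebs and -0.18 (adjusted p = 0.627) in shl-2. AN, which controls leaf cell shape, had -0.04 in both (adjusted p = 0.825 and 0.814). The remaining JAG, NUB and BPEp lay between -0.17 and 0.01 in ebs and between -0.06 and 0.00 in shl-2.

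The 4 genes whose profile over the 9 arrays was most like that of YAB5 were AT5G61570, AT2G37420, AT5G52280 and AT3G57780. Likeness was the root mean square difference between gene-centred log2 signals, and because YAB5 was chosen for its pattern these values are a description. AT5G61570 was closest at 0.156, with means of 5.63 ± 0.13 in ebs, 6.41 ± 0.09 in shl-2 and 6.23 ± 0.28 in wild type (SD, n = 3 each). The others differed from YAB5 by 0.241, 0.255 and 0.263. All 4 were lower in ebs than in wild type, by 0.60 for AT5G61570, 0.42 for AT2G37420, 0.38 for AT5G52280 and 0.57 for AT3G57780 in mean log2 signal, smaller than the difference of YAB5. Their shl-2 means exceeded the wild type means by 0.02 to 0.18. CLV3 and UFO, whose means lay below the lower quartile of 3.85, were left out of this comparison as too dim. The matching genes had no such limit. AT2G37420 was dim as well, with means of 3.52 in ebs, 3.96 in shl-2 and 3.94 in wild type.

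**Figure D4:**
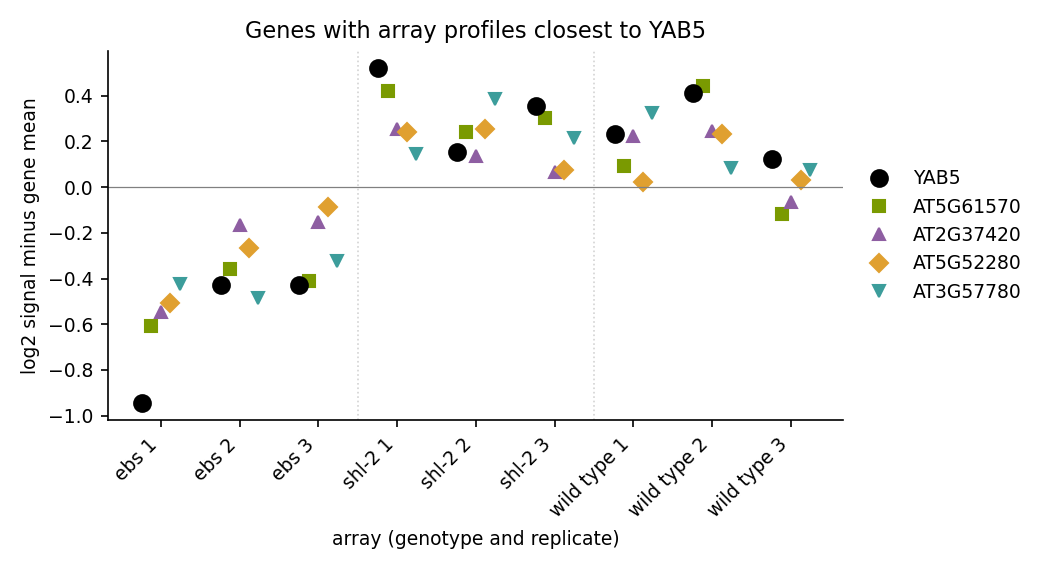
Gene-centred log2 signals of YAB5 and the 4 genes with the closest profiles on the 9 arrays, ordered by genotype (ebs, shl-2, wild type). All 5 genes lie below their own mean on the 3 ebs arrays, and YAB5 is lowest on ebs array 1.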

How the data were processed

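Biotin-labelled cRNA from 500 ng of total RNA per sample was hybridized to Affymetrix arrays, per the labels' protocols. The deposited table holds a log2 signal for each probe set and array; the submitters' processing notes name RMA and affy, with version, genome build and filters not given in the sources used here. RMA adjusts background and brings arrays to a common distribution. Background that remains in the signal can still compress differences of dim probe sets. Of 22810 probe sets, 64 controls were left out and no signal filter was applied. Gene names came from the platform annotation, updated through Entrez identifiers to RefSeq (TAIR10.1): 13513 probe sets named 1 gene, 503 several and 8730 were unnamed here; 13436 of the 13513 matched. The brightest probe set stood for a gene.

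With limma 3.58.1 in R 4.3.3, genotype means were fitted to all 9 arrays, followed by contrasts and default eBayes. Tests were two-sided, adjusted by Benjamini-Hochberg over 22746 probe sets per comparison, and called under 0.05. The steps were tested on simulated data. Members and lists were chosen with earlier results of these data known. Named genes were the members, SHL1, called list members, the 2 brightest of each list, and the 4 genes most like a member brighter than the lower quartile. Others, such as LAS, ARR15, CLE40, SPT, JAG, NUB, BPEp, PAP85 and the neighbours along the chromosome, were chosen after their values were seen. The marker lists covered leaf photosynthesis, root and seed storage. Alternatives were a replicate block, median centring, repeated quantile normalization, removal of the dimmest 30%, trended or robust variance, array weights, only the compared genotypes, and leaving out each array.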

Additional observations from a re-analysis of the deposited data

How the results depend on the processing

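CLV3 and UFO did not pass under any alternative that could be fitted; both fell among the dimmest 30%, so removing those gave them no value. Without single arrays the CLV3 log2 fold change ran from -0.053 to 0.102 in ebs, from 0.0033 to 0.158 in shl-2, and from -0.0017 to 0.103 in shl-2 minus ebs, changing sign in the ebs comparison (without wild type array 3 or ebs array 1) and between the mutants (without ebs array 2). UFO ran from 0.107 to 0.267 in ebs, from 0.0233 to 0.183 in shl-2 and from -0.137 to -0.0017 in shl-2 minus ebs, with no change of sign. YAB5 in ebs minus wild type stayed between -0.98 and -0.84 under the other settings. SHL1 in ebs turned to 0.0056 with repeated quantile normalization and ran from -0.112 to 0.0233 without single arrays, and AT2G26630 in shl-2 minus wild type from -0.05 to 0.165. Probe sets called in ebs numbered 1129 with array weights against 726, and between the mutants 364 with array weights and 112 with only the compared genotypes against 175. List members called in shl-2 numbered 1 with only the compared genotypes against 4. Without single arrays, calls ran from 264 to 838 in ebs, 677 to 1229 in shl-2 and 64 to 190 between the mutants, and list members called from 0 to 1 in ebs and 1 to 3 in shl-2. The causes were not tested. Same-numbered samples correlated from -0.285 to 0.460 in their deviations from the genotype means, mostly positively. Differently numbered samples correlated from -0.544 to 0.459. The labels do not say that the number marks a shared batch, so the main fit did not pair samples. A pairing was not excluded. With the replicate block, 898, 1402 and 248 probe sets were called in ebs, in shl-2 and between the mutants, the YAB5 difference in ebs was -0.86, the AGO7 call was lost (adjusted p = 0.0628), and SHL1 passed in shl-2 minus ebs (0.0343), as it did with array weights (0.0240); SPT and PAP85 passed in shl-2 against wild type (0.0122 and 0.0212), and among the other tested genes named here no call changed with the block. Scanner files were not used here, so background correction was not varied. Signals near background limit CLV3 and UFO.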

Other observations

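YAB5 and CLV3 lie on the same chromosome with 27 measured genes between them, and the 5 measured genes on each side of every member were examined after the data were seen. Genes without a probe set that named them alone were not counted. Among the 10 neighbours of YAB5, 1 passed limma's test in ebs against wild type, 0 in shl-2 against wild type and 1 between the mutants, beside 3.19%, 5.43% and 0.769% of all probe sets. At an unadjusted p under 0.05 there were 1, 0 and 3 in these comparisons, beside 16.9%, 18.7% and 10.7% of all probe sets. The gene that passed was AT2G26630 in both cases, the third measured gene from YAB5. It read 4.28, 4.11 and 4.32 in ebs, 4.81, 5.22 and 4.79 in shl-2, and 4.80, 4.96 and 4.79 in wild type, so that the ebs arrays lay below the other 6, as for YAB5. Its log2 fold change was -0.61 in ebs (SE 0.12, adjusted p = 0.0260), 0.09 in shl-2 (adjusted p = 0.761) and 0.70 in shl-2 minus ebs (SE 0.12, adjusted p = 0.0287). The ebs call ended without wild type array 2 (adjusted p = 0.109) or 3 (0.0609) or ebs array 1 (0.0812), 2 (0.0701) or 3 (0.0628). The call between the mutants ended without wild type array 3, any ebs array, or shl-2 array 1 or 2 (highest adjusted p = 0.116) and with only the compared genotypes (0.0986). The 10 neighbours of YAB5 had a median log2 fold change of -0.02 in ebs and ranged from -0.61 to 0.61. In shl-2 minus ebs their median was 0.05 and the range -0.93 to 0.70. None of the 10 neighbours of CLV3 or the 10 of UFO passed limma's test in any comparison. At an unadjusted p under 0.05 there were 2 for CLV3 and 0 for UFO in ebs, 0 and 1 in shl-2, and 2 and 1 between the mutants, beside 16.9%, 18.7% and 10.7% of all probe sets in these comparisons.

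The seed storage gene PAP85, the 1 measured of 18 seed markers, read 7.75, 6.43 and 7.35 in ebs, 8.09, 7.75 and 6.86 in shl-2, and 6.44, 6.05 and 6.07 in wild type. Its log2 fold changes of 0.99 in ebs (limma adjusted p = 0.183) and 1.38 in shl-2 (adjusted p = 0.0529) did not pass. In shl-2 it passed in 7 of the 8 other settings (adjusted p = 0.0212 with the replicate block to 0.0462 with repeated quantile normalization; 0.111 with a robust variance), and without ebs array 2 (0.0205) or shl-2 array 3 (0.0213). In ebs it passed in none of them (lowest adjusted p = 0.0550). Of the root markers 2 of 26 were measured, the root hair expansin genes EXPA7 and EXPA18, whose mean signal lay between 4.94 and 5.17 in ebs, between 4.82 and 4.89 in shl-2 and between 4.69 and 4.94 in wild type. Neither passed limma's test in any comparison, beside 3.19% of all probe sets in ebs, 5.43% in shl-2 and 0.769% between the mutants. The smallest unadjusted limma p was 0.0144, for EXPA18 in ebs (log2 fold change 0.24, adjusted p = 0.158).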
